A study of Homo sapiens with 9 samples.

Results

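The nuclear genes that encode subunits of the mitochondrial respiratory chain and of ATP synthase were examined in RNA from HEK293T cells and a pair of clones derived from them. Members were chosen by symbol: the NDUFA, NDUFB, NDUFC, NDUFS and NDUFV genes, SDHA to SDHD, the UQCR genes with CYC1 and CYCS, 11 COX genes of ubiquitous isoforms, and the ATP5 genes, all protein-coding. The rule took 86 of the 60683 gene IDs in the count tables and used no measured value. Complex I supplied 38 members, complex II 4, complex III 10, complex IV 13 and complex V 20, and cytochrome c was counted apart as 1. NDUFA4 and NDUFA4L2 were counted with complex IV, where the NDUFA4 protein is now placed.

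HEK293T cells, an established line, descend from human embryonic kidney and express SV40 large T antigen. No reporter was present in parental cells. Clone 15 and clone 37 each arose from a single sorted cell after piggyBac transposition of a pair of luciferase constructs, ATG-(CAG)60-Myc-NLuc with 60 CAG units and ATG-(CAG)0-Myc-FLuc with 0, which clone 37 expressed at a high and clone 15 at a low level. All groups were grown in the same serum-containing medium, and each was sequenced as 3 libraries of ribosome-depleted total RNA. A single clone stands for each expression level, so that level and any other difference between the clones cannot be told apart. Clone 15 was read at 100 bp and the other groups at 75 bp, so effects of read length cannot be told apart from those of clone 15.

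Electrons from NADH enter the chain at complex I and electrons from succinate at complex II; both pass through ubiquinone to complex III, through cytochrome c to complex IV and so to oxygen. Complexes I, III and IV pump protons across the inner membrane, and complex V, the ATP synthase, uses the gradient to make ATP. A few core subunits of complexes I, III, IV and V come from mitochondrial DNA, and the nuclear genes described here supply the rest, scattered over many chromosomes. NRF1, GABPA and YY1 are transcription factors long known to bind promoters of such genes.

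Gene counts summed to 10334090 to 38093340 per library, and the 3 clone 15 libraries were the deepest. Reads that mapped to several places made up 4.59% to 5.98% of read pairs in clone 15 and 10.4% to 13.95% in the other groups. Reads outside annotated genes made up 33.7% to 34.6% in clone 15, 19.2% to 28.8% in parental and 25.7% to 29.9% in clone 37. The lowest share, 19.2%, was that of parental replicate 2. Parental replicate 2 stood apart from the other parental libraries. Its members summed to 7481 CPM (counts scaled to each library's total of gene counts, per 1e6) against 6618 and 6647, and mitochondrially encoded genes held 1.33% of its gene counts against 2.10% and 1.98%. Of the markers of kidney epithelium and HEK293 cells, 6 of 7 reached 1 CPM (PAX8 did not), with summed levels of 693 to 801 CPM in parental, 759 to 786 in clone 15 and 668 to 736 in clone 37. Fibroblast markers summed to 35.6 to 38.1, 54.9 to 169 and 19.2 to 21.3 CPM in the same order, with 3 of 5 detected at 1 CPM and DCN and PDGFRB under it. Of 5 blood, 5 hepatocyte and 5 muscle markers 1, 0 and 0 reached 1 CPM, and CD3E, HBB, SERPINA1, APOH, TNNT2 and MYL2 had 0 counts. The part of the fibroblast markers and of parental replicate 2 in the results on single members was not tested beyond leaving out each library. For genes of the other lists below, no values with a library left out are given.

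Levels per length spread widely within each complex. Averaged over the 9 libraries, ATP5F1B, the catalytic beta subunit of ATP synthase, had the highest level of all members at 405 CPM per kb of exon. UQCRH, the hinge protein of complex III, followed at 284 CPM per kb, and its intronless relative UQCRHL was the lowest of complex III at 3.07. NDUFS5 led complex I at 168, COX7C led complex IV at 107 and SDHB led complex II at 76.8 CPM per kb. The median per kb was 30.9 CPM in complex I, 13.5 in complex II, 68.4 in complex III, 82.0 in complex IV and 53.2 in complex V. NDUFA4L2, a paralog of NDUFA4 known to be induced by hypoxia, stood lowest in complex IV at 0.858 CPM per kb. A pair of read-through genes could not be tested: NDUFC2-KCTD14 had 0 counts in every library, and ATP5MF-PTCD1 had 1 to 6. They share 100% and 88.3% of their exon length with other genes on the same strand, and reads in shared exons are ambiguous and are counted for neither gene.

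Promoters were examined for the letters bound by the 3 factors, because these are sequence features the choice of members did not use. Sequences from 250 bases before to 50 bases after the start were found for 70 of the 86 members in RefSeq on GRCh38.p14. Among those not matched were NDUFB5, NDUFB9, NDUFC2, NDUFS5, SDHC, UQCRB, UQCRHL, COX6C, NDUFA4, ATP5F1B, ATP5F1D, ATP5MC3, ATP5MF, ATP5MF-PTCD1 and ATP5MGL. Both strands were searched. The NRF1 letters, the capitals of the NDUFB4 stretch below, read the same on both strands and lay in 4 of the 70 (5.71%) against 1.24% of 35116 promoters and 1.5% of the 22199 of protein-coding genes. The GABPA letters CCGGAAG lay in 20 (28.6%) against 10.3% and 12.8%, and the YY1 letters AAGATGGC in 12 (17.1%) against 2.89% and 3.53%. At least 1 of the 3 was present in 33 of the 70 (47.1%) against 13.5% of all promoters. YY1 letters sat within the first 50 bases after the start in 10 of the 12 (83.3%), compared with 59.7% of the protein-coding promoters that hold them.

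The following stretches hold NRF1 or GABPA letters and lie, with the bases around them, upstream of the start and outside the annotated gene. They are all the stretches that met these conditions. NDUFB4, UQCR11 and ATP5MK are among the members named for their changes, which had no part in the choice. Each is written 5′ to 3′ on the strand of its gene, with the matched letters in capitals. NDUFB4 (chr3:120596167-120596196, plus strand) holds the NRF1 letters. UQCR11 (chr19:1605543-1605589, minus strand) holds the GABPA letters once on each strand. In ATP5MK (chr10:103396619-103396648, minus strand) the GABPA letters of both strands overlap. NDUFB7 (chr19:14572074-14572100, minus strand) and ATP5PD (chr17:75047054-75047080, minus strand) each hold a single copy, on opposite strands.
NDUFB4: agagcacttcGCGCATGCGCatatcaccga
UQCR11: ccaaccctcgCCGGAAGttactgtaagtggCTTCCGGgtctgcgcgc
ATP5MK: cagtgcaattCTTCCGGAAGtgtgggcggg
NDUFB7: cctaaatgacCCGGAAGctgtgtctga
ATP5PD: cgggaagataCTTCCGGaaccagccct

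Summed over all members, the chain took 6915 ± 490 CPM in parental, clone 15 took 7424 ± 54.3 and clone 37 took 7082 ± 68.9 (mean ± SD of 3 libraries). Parental libraries gave 6618, 7481 and 6647 CPM, clone 15 gave 7419, 7372 and 7481, and clone 37 gave 7046, 7039 and 7162. Clone 15 lay above clone 37 in every library, and parental replicate 2 lay among the clone 15 libraries. The complex I sum was 1969, 2155 and 1989 CPM in parental cells, 2187, 2223 and 2189 in clone 15 and 2032, 2030 and 2017 in clone 37, so clone 15 was highest and did not overlap either group. The complex V sum was 2294, 2634 and 2323 CPM in parental cells, 2682, 2676 and 2753 in clone 15 and 2403, 2400 and 2446 in clone 37, with clone 15 again above all others. ATP5F1B makes up a large part of the complex V sum, and its own values, not called in clone 15 against parental, are given below. The sums are not corrected for GC and length trends. Complex II, at 218 ± 6.75 CPM in parental, stood at 243 ± 7.72 in clone 15 and 247 ± 10.0 in clone 37, and both clones lay above every parental library. Complex III summed to 950 ± 84.1, 996 ± 10.7 and 1057 ± 15.3 CPM and complex IV to 1104 ± 99.7, 1145 ± 22.3 and 1163 ± 22.8 CPM in parental, clone 15 and clone 37. Parental replicate 2 lay above every clone 15 library in complex III (1047 CPM) and was the highest of all libraries in complex IV (1218 CPM). CYCS, which encodes cytochrome c, stood lowest in clone 15.

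**Figure D1:**
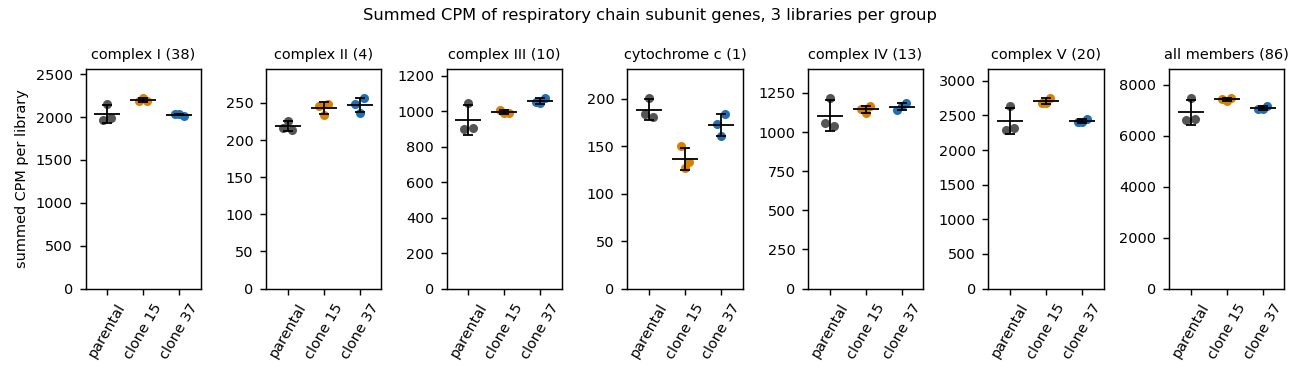
Summed CPM (vertical axes, from 0) of the members of each complex in every library of parental, clone 15 and clone 37 cells, with 1 point per library and bars for the mean and SD of 3. Clone 15 lies above the other groups in complexes I (2187 to 2223) and V (2676 to 2753), CYCS is lowest in clone 15, and parental replicate 2 is the upper parental point in every panel.

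In clone 37 against parental, 43 of the 84 tested members were called by edgeR's quasi-likelihood test with Benjamini-Hochberg adjustment at 0.05, a share of 51.2% beside 54.0% of all 16501 genes tested. Of these, 23 were higher (all genes 26.7%) and 20 lower (all genes 27.3%). The median log2 fold change was 0.09 over the members and 0.02 over all genes. Leaving out 1 library moved the median of members to 0.0398 (parental replicate 1), 0.12 (parental replicate 2), 0.0283 (parental replicate 3) or 0.0238 (clone 37 replicate 3), and removing GC and length trends to 0.0385. The median absolute log2 fold change was 0.23 over the members and 0.32 over all genes. Only NDUFA4L2 changed by 2-fold or more. By complex, 10 members were higher and 11 lower of 37 in complex I, 1 and 0 of 4 in complex II, 3 and 1 of 10 in complex III, 4 and 4 of 13 in complex IV and 5 and 4 of 19 in complex V. Without parental replicate 2 the count was 61 (72.6%, beside 59.4% of all genes in the same fit), with 41 higher (all genes 28.2%) and 20 lower (31.2%). Without parental replicate 3 the members split into 17 higher (all genes 22.5%) and 25 lower (27.3%), and without clone 37 replicate 3 into 14 (19.8%) and 21 (24.8%). In a fit of protein-coding genes only, 54.8% of members were called beside 61.6% of those genes.

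In clone 15 against parental, 49 of 84 members were called (58.3%, beside 51.4% of 17703 genes), 33 higher (all genes 25.1%) and 16 lower (all genes 26.2%). The median log2 fold change was 0.19 over the members and 0.02 over all genes, and the median absolute values were 0.29 and 0.36. Without parental replicate 3 the median of members was 0.12. Complex I had 17 higher and 5 lower of 37, complex II 1 and 1 of 4, complex III 4 and 1 of 10, complex IV 4 and 3 of 13 and complex V 7 and 5 of 19. The excess of higher calls depended on the processing. With each library corrected for trends in GC content and length, 18 were higher (all genes 25.4%) and 17 lower (23.7%), the median was 0.03, and the called share of members was 41.7% beside 49.1% of all genes. With unstranded counts 23 were higher (21.5%) and 19 lower (23.7%). Without parental replicate 1 the split was 23 (19.9%) and 18 (22.8%), without replicate 2 it was 42 (23.3%) and 13 (24.7%), and without replicate 3 it was 23 (21.1%) and 19 (23.7%).

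Between the clones, 58 of 84 members were called (69.0%, beside 57.7% of 17712 genes), with 22 higher in clone 37 (all genes 28.7%) and 36 lower (all genes 29%). The median log2 fold change of clone 37 over clone 15 was -0.08, and the median absolute value was 0.29 against 0.35 for all genes. Complex I had 8 higher and 19 lower, complex II 2 and 1, complex III 4 and 3, complex IV 3 and 5, and complex V 4 and 8. NDUFAB1 and ATP5MF passed 2-fold, both higher in clone 37. The comparisons with parental share the parental libraries, so their counts are given side by side and are not set against each other.

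**Figure D2:**
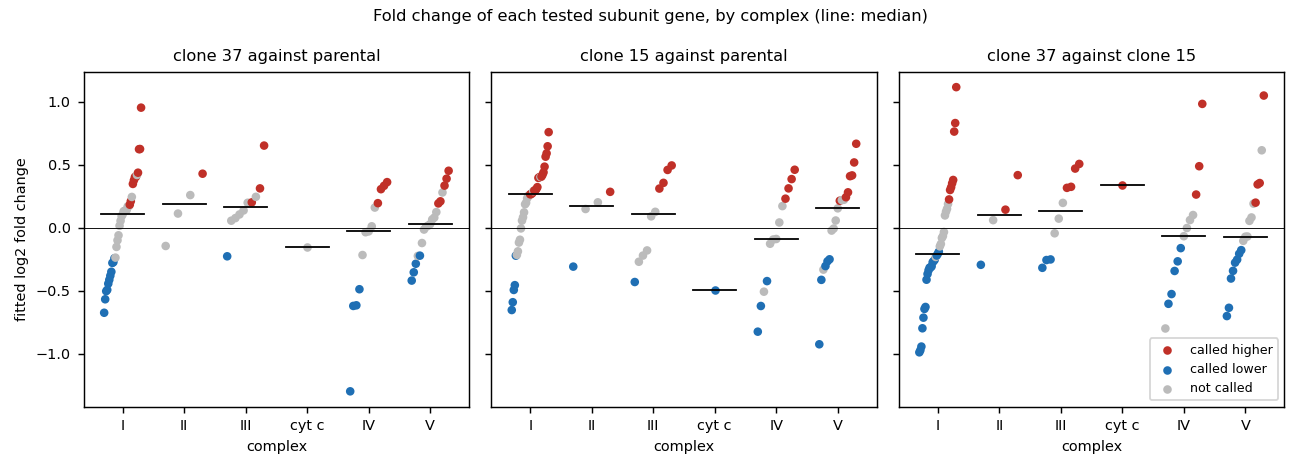
Fitted log2 fold change (vertical axis) of each of the 84 tested members in 3 comparisons, by complex, with called members in red (higher) or blue (lower), uncalled members in grey and a line at the median of each complex. Members of every complex except cytochrome c, which has a single gene, spread on both sides of 0, and the medians of complex I are 0.11, 0.26 and -0.21 from left to right.

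The catalytic core of complex I holds the flavin and the iron-sulfur clusters. Of its 7 nuclear genes, 1 was higher and 2 lower in clone 37 against parental (all genes 26.7% and 27.3%), 4 were higher and 1 lower in clone 15 against parental (25.1% and 26.2%), and 0 were higher and 5 lower in clone 37 against clone 15 (28.7% and 29%). NDUFS1, the largest subunit and a carrier of iron-sulfur clusters (ENSG00000023228, chr2:206114817-206159603), stood at 235, 243 and 242 CPM in parental cells, 165, 161 and 162 in clone 15 and 180, 167 and 173 in clone 37. Every library of either clone lay below every parental library. The log2 fold change was -0.49 ± 0.06 in clone 37 (SE, adjusted p = 1.2e-06, edgeR) and -0.59 ± 0.08 in clone 15 (adjusted p = 7.3e-07), and 0.10 between the clones (adjusted p = 0.13). NDUFV1, the NADH-oxidising flavoprotein, stood at 143, 148 and 143 CPM in parental cells, 173, 201 and 182 in clone 15 and 149, 155 and 144 in clone 37. Clone 15 lay above both other groups, by 0.32 ± 0.08 on the log2 scale over parental (adjusted p = 0.0017; 0.18 and 0.058 with a replicate block and GC and length trends removed), and clone 37 against parental gave 0.02 (adjusted p = 0.84).

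Accessory subunits of complex I surround the core and are needed for its assembly and stability. Of 30 tested, 9 were higher and 9 lower in clone 37 against parental (all genes 26.7% and 27.3%), 13 and 4 in clone 15 against parental (25.1% and 26.2%), and 8 and 14 in clone 37 against clone 15 (28.7% and 29%). In clone 37 against parental these counts lay near the shares of all genes. NDUFC1, a small subunit of the membrane arm (ENSG00000109390, chr4:139266880-139302551), measured 31.9, 38.3 and 28.8 CPM in parental cells, 39.8, 40.4 and 35.1 in clone 15 and 62.5, 63.5 and 69.5 in clone 37. Clone 37 stood clear of both groups, 1.94-fold above parental (log2 0.95 ± 0.10, adjusted p = 6.9e-07) and 1.70-fold above clone 15 (log2 0.76 ± 0.07, adjusted p = 4.3e-10). Parental and clone 15 overlapped, with a difference of 0.19 (adjusted p = 0.16) that became 0.34 (adjusted p = 0.0052) without parental replicate 2. The annotation gives 18.5% of NDUFC1's exon length to MGARP on the same strand as well, and reads there are counted for neither. NDUFA2, a thioredoxin-like subunit, stood at 22.9, 28.4 and 25.3 CPM in parental cells, 42.0, 47.5 and 43.4 in clone 15 and 28.8, 30.1 and 26.9 in clone 37. It was higher in clone 15 than in parental (0.76 ± 0.10, adjusted p = 8.5e-07), and clone 37 overlapped parental (0.13, adjusted p = 0.25; 0.21 and 0.027 without parental replicate 2).

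NDUFAB1, the mitochondrial acyl carrier protein, which also serves fatty acid synthesis (ENSG00000004779, chr16:23581002-23596356), measured 47.1, 49.3 and 41.5 CPM in parental cells, 32.2, 36.3 and 31.6 in clone 15 and 68.3, 74.5 and 73.4 in clone 37. The 3 groups did not overlap, with parental in the middle. Clone 37 was 1.54-fold above parental (log2 0.62 ± 0.08, adjusted p = 2.2e-06), clone 15 was 1.41-fold below it (log2 -0.49 ± 0.10, adjusted p = 0.00013), and the clones differed 2.17-fold (log2 1.12 ± 0.07, adjusted p = 1e-13). NDUFB10, of the distal membrane arm, had the same order: 108, 129 and 112 CPM in parental cells, 86.4, 90.0 and 83.7 in clone 15 and 156, 150 and 155 in clone 37. NDUFB10 changed by 0.38 ± 0.07 in clone 37 (adjusted p = 0.0002), -0.46 ± 0.09 in clone 15 (adjusted p = 9.8e-05) and 0.83 ± 0.06 between the clones (adjusted p = 4.4e-13). The call in clone 37 was lost with GC and length trends removed (0.26, adjusted p = 0.053) and against the median change of its 100 chromosomal neighbours, the genes around it (0.06, adjusted p = 0.49).

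NDUFA1, NDUFB1, NDUFB2 and NDUFB4, small membrane-arm subunits, had the opposite order, with clone 15 highest and clone 37 lowest. NDUFB2 measured 37.9, 43.6 and 39.1 CPM in parental cells, 53.6, 57.0 and 54.8 in clone 15 and 28.7, 25.5 and 28.7 in clone 37. NDUFB1 measured 30.7, 30.6 and 29 CPM in parental cells, 46.3, 47.1 and 45.5 in clone 15 and 22.2, 23.2 and 25.1 in clone 37. The groups did not overlap in either gene. Against parental, NDUFB2 changed by -0.57 ± 0.09 in clone 37 (adjusted p = 2.5e-05) and 0.42 ± 0.09 in clone 15 (adjusted p = 0.00041). NDUFB1 changed by -0.38 ± 0.08 (adjusted p = 0.001; -0.05 and 0.65 against the genes around it) and 0.59 ± 0.09 (adjusted p = 5.4e-06). NDUFB4, whose promoter carries the NRF1 letters shown above, changed by -0.27 ± 0.07 (adjusted p = 0.0047) and 0.44 ± 0.09 (adjusted p = 0.00016). NDUFA1 was lower in clone 37 (-0.67 ± 0.09, adjusted p = 6.8e-06). Its increase in clone 15 was 0.27 ± 0.10 (adjusted p = 0.029) and turned to -0.07 (adjusted p = 0.74) with GC and length trends removed; it missed the threshold at 0.18 (adjusted p = 0.17), 0.20 (adjusted p = 0.14) and 0.22 (adjusted p = 0.084) without parental replicate 1, parental replicate 3 and clone 15 replicate 3.

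The other accessory members named by their size of change were NDUFA5, NDUFA11 and NDUFA13. NDUFA5 was lower in clone 37 (-0.35 ± 0.08, adjusted p = 0.00088) and in clone 15 (-0.65 ± 0.10, adjusted p = 7.1e-06). NDUFA11, a subunit of the membrane arm, stood at 17.3, 14.7 and 15.6 CPM in parental cells, 23.7, 24.6 and 27.8 in clone 15 and 20.9, 22.2 and 22.3 in clone 37. Both clones lay above parental, by 0.44 ± 0.10 in clone 37 (adjusted p = 0.00099) and 0.65 ± 0.11 in clone 15 (adjusted p = 2.6e-05). NDUFA13, also known as GRIM-19, had the largest relative spread in parental cells of the members with a mean of at least 5 CPM (coefficient of variation 34.2%), at 5.74, 3.52 and 7.27 CPM. In clone 37 it measured 8.31, 7.55 and 9.80 CPM, above every parental library by 0.62 ± 0.21 (adjusted p = 0.02). That call was lost without clone 37 replicate 1 (0.65, adjusted p = 0.051) or replicate 3 (0.48, adjusted p = 0.10). Exons shared with another gene on the same strand make up 21.0% of NDUFA13.

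Complex II, succinate dehydrogenase, joins the chain to the citric acid cycle. SDHB, its iron-sulfur subunit, measured 72.2, 75.3 and 72.9 CPM in parental cells, 92.6, 88.1 and 93.6 in clone 15 and 104, 94.3 and 103 in clone 37. Both clones lay above parental, by 0.43 ± 0.06 in clone 37 (adjusted p = 1.8e-05) and by 0.28 ± 0.08 in clone 15 (adjusted p = 0.0045; 0.09 and 0.36 with GC and length trends removed). SDHD, a membrane anchor, stood at 40.7, 46.3 and 42.2 CPM in parental cells, 39.2, 33.9 and 33.2 in clone 15 and 45.4, 45.2 and 51.7 in clone 37. Clone 15 lay below both other groups: -0.31 ± 0.10 against parental (adjusted p = 0.01; -0.25 and 0.06 without clone 15 replicate 3) and 0.42 ± 0.08 for clone 37 over clone 15 (adjusted p = 7.5e-05). SDHA, the flavoprotein, gave 0.26 in clone 37 (adjusted p = 0.065; 0.36 and 0.021 without parental replicate 1) and 0.20 in clone 15 (adjusted p = 0.18). Of its longest transcript, 10.4% of 75-base words also occur in genes elsewhere, among them SDHA pseudogenes.

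In complex III, UQCRC2, a core protein, measured 173, 194 and 176 CPM in parental cells, 139, 125 and 148 in clone 15 and 195, 192 and 195 in clone 37. Clone 15 lay below both groups, by -0.43 ± 0.09 against parental (adjusted p = 0.00021), and clone 37 exceeded clone 15 by 0.51 ± 0.06 (adjusted p = 7.2e-08). UQCRFS1, the Rieske iron-sulfur protein, was higher in clone 37 (0.31 ± 0.07, adjusted p = 0.0015) and in clone 15 (0.36 ± 0.09, adjusted p = 0.0012). CYC1, cytochrome c1, was higher in clone 37 than in clone 15 (0.32 ± 0.06, adjusted p = 5.1e-05). Against parental it gave 0.14 in clone 37 (adjusted p = 0.089; 0.20 and 0.00032 without parental replicate 2) and -0.18 in clone 15 (adjusted p = 0.084). CYC1 passed the test in clone 15 under 6 of 19 alternatives, among them GC and length trends removed (-0.29, adjusted p = 0.011), parental replicate 3 left out (-0.26, adjusted p = 0.028) and clone 15 replicate 2 left out (-0.22, adjusted p = 0.032).

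UQCR11, the smallest subunit of complex III (ENSG00000127540), with GABPA letters on both strands of the promoter stretch above, measured 14.8, 16.7 and 15.9 CPM in parental cells, 20, 22.1 and 24.9 in clone 15 and 26.9, 23.8 and 25.3 in clone 37. Both clones lay above parental, by 0.65 ± 0.10 in clone 37 (adjusted p = 1.9e-05) and 0.46 ± 0.12 in clone 15 (adjusted p = 0.002; 0.21 and 0.15 with GC and length trends removed). UQCRQ was higher in clone 15 (0.49 ± 0.11, adjusted p = 0.0015; 0.21 and 0.36 with those trends removed), and in clone 37 gave 0.24 (adjusted p = 0.11; 0.39 and 2.3e-08 without parental replicate 2, 0.26 and 0.011 with a replicate block, 0.23 and 0.016 with no filter on low counts). UQCRHL was higher in clone 37 than in clone 15 (0.47 ± 0.15, adjusted p = 0.0075; 0.41 and 0.055 without clone 37 replicate 3). It lay at 5.08 to 8.26 CPM in all libraries, and UQCRH shares 19.6% of its 75-base words with genes elsewhere, UQCRHL included.

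CYCS measured 184, 201 and 181 CPM in parental cells, 150, 127 and 133 in clone 15 and 173, 160 and 184 in clone 37. Clone 15 lay below every other library. Cytochrome c carries electrons from complex III to complex IV and is also a trigger of apoptosis when released. Its log2 fold change was -0.50 ± 0.09 in clone 15 against parental (adjusted p = 3.5e-05) and 0.34 ± 0.07 in clone 37 over clone 15 (adjusted p = 0.00015). Clone 37 against parental gave -0.15 (adjusted p = 0.063; -0.23 with 0.022 without parental replicate 3 and -0.23 with 0.04 without clone 37 replicate 3).

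In complex IV, COX6C gave the largest difference of a member above 2 CPM in that complex. COX6C, a transmembrane subunit (ENSG00000164919, chr8:99873200-99894062), stood at 63.1, 69.9 and 61.0 CPM in parental cells, 37.1, 40.1 and 34.7 in clone 15 and 71.0, 71.1 and 78.5 in clone 37. Clone 15 was far below the other groups, 1.77-fold under parental (log2 -0.82 ± 0.09, adjusted p = 5.4e-08), and clone 37 was 1.98-fold above it (log2 0.98 ± 0.07, adjusted p = 1.5e-12). COX4I1, the ubiquitous isoform of the regulatory subunit 4, measured 163, 186 and 162 CPM in parental cells, 153, 172 and 154 in clone 15 and 219, 221 and 229 in clone 37. Clone 37 lay above both groups, by 0.36 ± 0.07 over parental (adjusted p = 0.00015) and 0.49 ± 0.06 over clone 15 (adjusted p = 1.5e-08), and clone 15 overlapped parental. COX5B, a zinc-binding subunit, stood at 80.5, 94.1 and 84.3 CPM in parental cells, 81.3, 79.3 and 88.7 in clone 15 and 56.2, 56.1 and 59.7 in clone 37. It was lower in clone 37 than in parental (-0.62 ± 0.07, adjusted p = 1.4e-06) and than in clone 15 (-0.53 ± 0.07, adjusted p = 9.5e-08).

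COX6B1, which faces the intermembrane space, and COX8A, the smallest subunit, were higher in clone 15 than in parental. The values were 0.46 ± 0.08 (adjusted p = 5.8e-05) and 0.39 ± 0.12 (adjusted p = 0.009). With GC and length trends removed they were 0.09 (adjusted p = 0.56) and -0.02 (adjusted p = 0.95), and COX8A also missed the threshold without parental replicate 3 (0.25, adjusted p = 0.063). COX6B1 was called higher in clone 37 against parental (0.19 ± 0.07, adjusted p = 0.023), a call that 13 of 19 alternatives ended in the same direction and the comparison with chromosome neighbours turned (-0.11, adjusted p = 0.22). Without parental replicate 1 or 3 it gave 0.16 (adjusted p = 0.097) and 0.12 (adjusted p = 0.24), and without clone 37 replicate 1, 2 or 3 0.16 (adjusted p = 0.13), 0.19 (adjusted p = 0.069) and 0.21 (adjusted p = 0.058). COX8A shares 34.5% of its exon length with another gene on the same strand.

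Of the paralogs of complex IV, COX7A2L, which bridges complexes III and IV in supercomplexes, measured 69.0, 75.5 and 65.1 CPM in parental cells, 48.3, 48.0 and 42.9 in clone 15 and 46.3, 46.6 and 46.0 in clone 37. Both clones lay below parental, by -0.62 ± 0.07 in clone 37 (adjusted p = 1.4e-06) and -0.62 ± 0.09 in clone 15 (adjusted p = 2.9e-06; -0.10 and 0.38 against the genes around it). COX7A2, the subunit itself, was higher in clone 15 (0.31 ± 0.08, adjusted p = 0.003) and gave -0.03 in clone 37 (adjusted p = 0.73). NDUFA4 was lower in clone 37 (-0.49 ± 0.08, adjusted p = 3.4e-05) and in clone 15 (-0.42 ± 0.10, adjusted p = 0.00066). NDUFA4L2 had 20, 17 and 23 counts in parental, 49, 22 and 23 in the deeper clone 15 libraries and 7, 6 and 9 in clone 37, or 1.85, 1.22 and 1.76, 1.29, 0.893 and 1.23, and 0.639, 0.581 and 0.729 CPM. It was lower in clone 37 than in parental by 2.46-fold (log2 -1.30 ± 0.35, adjusted p = 0.0045), the largest fitted change of any member and one with few counts behind it. Clone 15 against parental gave -0.51 (adjusted p = 0.19), and clone 37 against clone 15 gave -0.80 (adjusted p = 0.065; -0.97 and 0.029 without clone 15 replicate 2).

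In complex V the F1 head, which makes ATP, had 1 gene higher and 0 lower of 5 in clone 37 against parental (all genes 26.7% and 27.3%), 3 and 0 in clone 15 against parental (25.1% and 26.2%), and 1 and 4 between the clones (28.7% and 29%). ATP5F1B stood at 663, 789 and 689 CPM in parental cells, 828, 872 and 852 in clone 15 and 665, 655 and 685 in clone 37. Clone 15 lay above all other libraries. It exceeded clone 37, with -0.34 ± 0.05 for clone 37 over clone 15 (adjusted p = 1.1e-06), while clone 15 against parental gave 0.22 (adjusted p = 0.064; 0.32 and 0.00011 without parental replicate 2). ATP5F1B passed there under 6 of 19 alternatives, among them DESeq2 (0.22, adjusted p = 0.033) and protein-coding genes only (0.27, adjusted p = 0.0061). The values under the 19 ran from -0.0989 to 0.32. ATP5F1A, the alpha subunit, was higher in clone 15 (0.24 ± 0.09, adjusted p = 0.024), a call lost without parental replicate 1 (0.19, adjusted p = 0.14) or 3 (0.17, adjusted p = 0.19). Between the clones it gave -0.18 ± 0.05 (adjusted p = 0.0038; -0.14 and 0.052 without clone 37 replicate 2).

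ATP5MC1, ATP5MC2 and ATP5MC3 encode the same mature subunit c, the ring that turns as protons pass, with different import sequences. ATP5MC1 (ENSG00000159199, chr17:48892765-48895871) measured 47.3, 50.7 and 48.1 CPM in parental cells, 76.3, 81.3 and 79.6 in clone 15 and 65.7, 64.7 and 64.4 in clone 37. ATP5MC3 measured 146, 164 and 146 CPM in parental cells, 127, 134 and 131 in clone 15 and 126, 115 and 123 in clone 37. ATP5MC1 was above parental in every clone library and ATP5MC3 below it. The log2 fold changes in clone 37 were 0.39 ± 0.07 for ATP5MC1 (adjusted p = 8e-05) and -0.35 ± 0.07 for ATP5MC3 (adjusted p = 0.00022). In clone 15 they were 0.67 ± 0.08 (adjusted p = 3.4e-07) and -0.25 ± 0.08 (adjusted p = 0.013; -0.21 and 0.056 without clone 15 replicate 1, -0.04 and 0.69 with GC and length trends removed). ATP5MC2, the most counted of the 3, gave -0.01 (adjusted p = 0.85) and 0.06 (adjusted p = 0.61). As a share of the counts of the 3 genes, ATP5MC1 held 12.7% ± 0.324 in parental, against 19.5% ± 0.631 in clone 15 and 17.5% ± 0.194 for clone 37 (mean ± SD of 3 libraries). ATP5MC3 held 39.6% ± 0.400, 32.3% ± 1.28 and 32.6% ± 1.18, and ATP5MC2 held 47.7%, 48.1% and 49.8%.

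**Figure D3:**
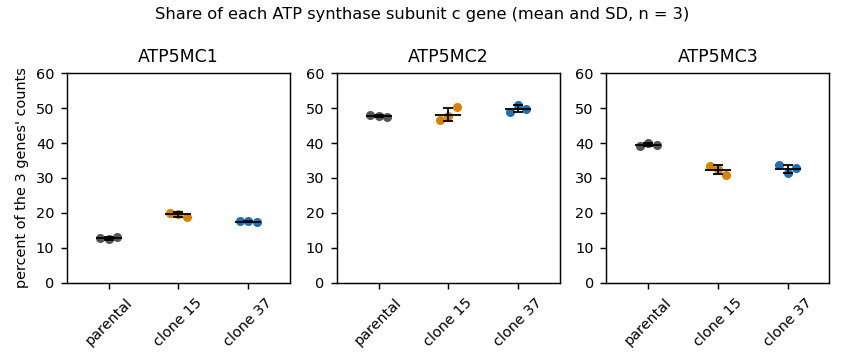
Share of each subunit c gene in the counts of the 3 genes (vertical axis, percent, from 0) in every library of parental, clone 15 and clone 37 cells, with the mean and SD of 3. ATP5MC1 has means of 12.7% in parental, 19.5% in clone 15 and 17.5% in clone 37, ATP5MC3 is lower in both clones, and the ATP5MC2 means lie at 47.7%, 48.1% and 49.8%.

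Of the small membrane subunits, which join ATP synthase into dimers, 2 were higher and 2 lower of 5 in clone 37 against parental (all genes 26.7% and 27.3%), 3 and 1 in clone 15 against parental (25.1% and 26.2%), and 2 and 2 between the clones (28.7% and 29%). ATP5MF, subunit f (ENSG00000241468, chr7:99448475-99466331), stood at 33.8, 43.2 and 36.8 CPM in parental cells, 20.6, 19.4 and 21.5 in clone 15 and 37.9, 49.6 and 39.6 in clone 37. Clone 15 was 1.90-fold under parental (log2 -0.93 ± 0.11, adjusted p = 1e-07) and clone 37 was 2.07-fold above clone 15 (log2 1.05 ± 0.09, adjusted p = 1.7e-10), while clone 37 overlapped parental. ATP5MK, also called DAPIT, measured 57.3, 67.2 and 55.2 CPM in parental cells, 97.6, 85.2 and 80.3 in clone 15 and 81.4, 83.6 and 85.6 in clone 37. Both clones lay above parental, by 0.45 ± 0.08 in clone 37 (adjusted p = 8.1e-05) and 0.52 ± 0.10 in clone 15 (adjusted p = 0.00013; 0.31 and 0.069 with GC and length trends removed). ATP5MF shares 8.57% of its exon length with another gene on its strand and ATP5MK 15.4%.

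ATP5MJ and ATP5ME, a further pair of small membrane subunits, were lowest in clone 37. ATP5MJ measured 56.2, 63.7 and 54.3 CPM in parental cells, 71.4, 66.1 and 69.2 in clone 15 and 43.8, 47.9 and 41.3 in clone 37, and ATP5ME 41.8, 54.3 and 47.0, 66.3, 53.1 and 76.5, and 39.0, 40.8 and 40.2. The clones did not overlap in either gene. Clone 37 was below parental by -0.42 ± 0.08 for ATP5MJ (adjusted p = 0.00026) and -0.29 ± 0.09 for ATP5ME (adjusted p = 0.012; -0.27 and 0.057 without clone 37 replicate 1). Clone 15 was above parental by 0.21 ± 0.09 for ATP5MJ (adjusted p = 0.049) and 0.42 ± 0.15 for ATP5ME (adjusted p = 0.033). Leaving out parental replicate 1 or 3 ended both calls: ATP5MJ gave 0.16 (adjusted p = 0.22) and 0.14 (adjusted p = 0.30), ATP5ME 0.30 (adjusted p = 0.071) and 0.37 (adjusted p = 0.13). Without clone 15 replicate 1 ATP5MJ gave 0.20 (adjusted p = 0.092) and ATP5ME 0.42 (adjusted p = 0.078), and without clone 15 replicate 3 ATP5MJ gave 0.23 (adjusted p = 0.061). In all, 11 of 19 alternatives ended the ATP5MJ call, and with GC and length trends removed ATP5MJ gave 0.19 (adjusted p = 0.095) and ATP5ME 0.0090 (adjusted p = 0.98).

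Of the chromosomes with at least 2 called members, 9 of 14 held calls of a single direction in clone 37 against parental, 9 of 13 in clone 15 against parental and 6 of 14 between the clones. Several of them held only 2 called members. The share expected without any link to position was not computed, so the tally is a description. On chromosome 1, with 8 members, calls went both ways in all 3 comparisons, 2 higher and 2 lower, 2 and 2, and 3 and 3. The chromosomes described next were picked after their values were seen, and over the whole genome 26.7% and 27.3% of genes were higher and lower in clone 37 against parental, 25.1% and 26.2% in clone 15 against parental and 28.7% and 29% between the clones. The 4 members on chromosome 16, NDUFAB1, NDUFB10, UQCRC2 and COX4I1, belong to 3 complexes and were all higher in clone 37 than in clone 15, at 0.49 to 1.12. Against parental, 3 were higher in clone 37 and 3 lower in clone 15. The 4 on chromosome 8, NDUFB9, CYC1, UQCRB and COX6C, were also all higher in clone 37 than in clone 15, at 0.32 to 0.98, and 2 were lower in clone 15 than in parental. Of the 6 on chromosome 2, NDUFS1, NDUFA10, NDUFB3, COX5B, COX7A2L and ATP5MC3, 5 were lower in clone 37 and 3 in clone 15, and 0 were higher in either. Chromosome 19 carried 10 members, of which clone 37 had 6 higher and 1 lower, and clone 15 had 7 higher and 0 lower. On chromosome 14, NDUFB1 and ATP5MJ were both lower in clone 37 and higher in clone 15. Of the 5 tested on chromosome 7, 3 were lower in clone 37 and 4 lower and 1 higher in clone 15.

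**Figure D4:**
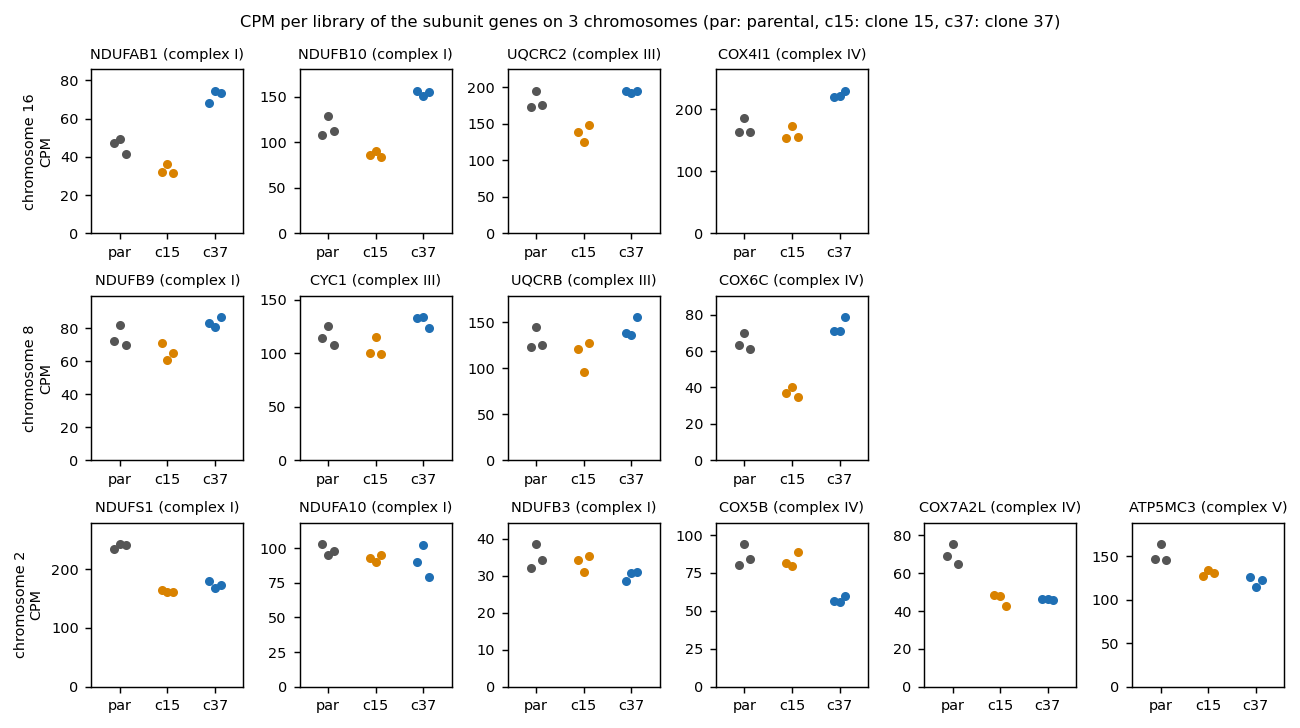
CPM per library (vertical axes, from 0) of the members on chromosomes 16, 8 and 2, with 1 point per library of parental, clone 15 and clone 37. On chromosomes 16 and 8 all 8 genes are higher in clone 37 than in clone 15, and on chromosome 2 no member is called higher in either clone than in parental.

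Changes of the members were set beside those of the genes next to them, whatever the function of these. For each gene, the 100 tested genes that flank it on the chromosome gave a median of log2 fold changes. Over the 84 members, a member's own change and this median were correlated in clone 37 against parental (Pearson r = 0.68, Spearman rho = 0.70), in clone 15 against parental (0.63 and 0.56) and between the clones (0.68 and 0.60). These are descriptions across genes, which share libraries and, where members lie close together, some of the same neighbours. Over all genes the Pearson values were 0.39 (16312 genes), 0.31 (17479) and 0.34 (17481). All genes include noncoding and weakly counted ones, and the SD of their log2 fold changes was 0.73, 0.77 and 0.86. Over the members it was 0.35, 0.37 and 0.44, so the correlations of members and of all genes are not like for like. Of the called members, 41 of 43 (95.3%), 41 of 49 (83.7%) and 43 of 58 (74.1%) had the sign of their neighbours, beside 79.0%, 75.1% and 72.2% of all called genes. Members called against the median of their neighbours numbered 28 (14 higher, 14 lower), 31 (23 and 8) and 54 (19 and 35). These were 33.3%, 36.9% and 64.3% of the members, beside 43.1%, 42.3% and 50.8% of all genes tested that way. Of the members called as measured, 18 of 43 (41.9%), 24 of 49 (49.0%) and 47 of 58 (81.0%) were still called, beside 61.4%, 65.7% and 74.5% of all called genes.

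**Figure D5:**
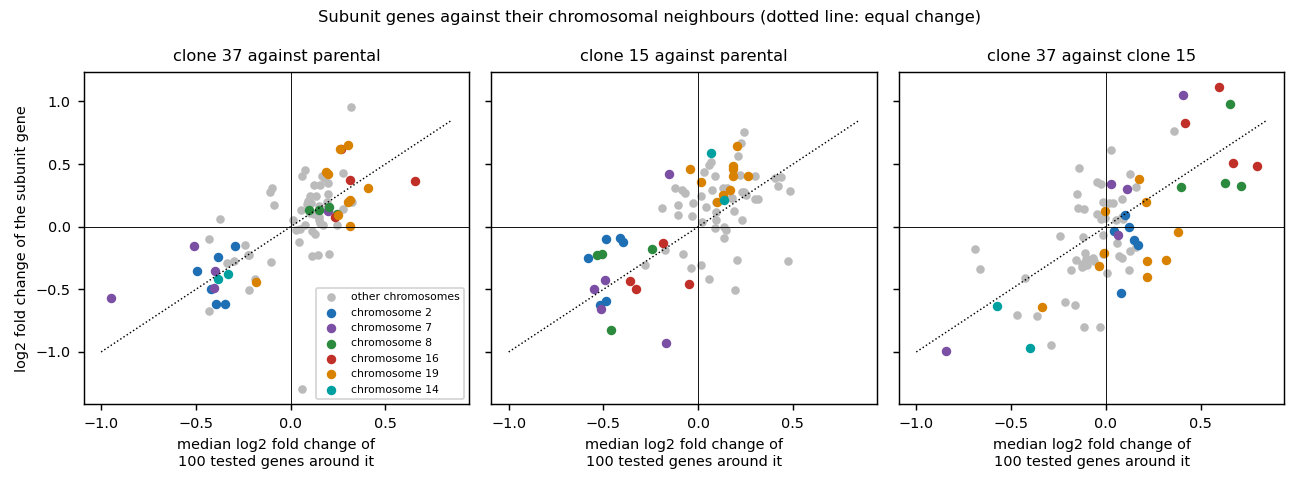
Fitted log2 fold change of each tested member (vertical axis) against the median of the 100 flanking tested genes on its chromosome (horizontal axis), with colours for chromosomes 2, 7, 8, 14, 16 and 19 and a dotted line for equal change. Pearson's r over the 84 members is 0.68, 0.63 and 0.68 from left to right.

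Set against their neighbours, some members gave values near 0, some changed sign and others were still called. NDUFS1, at -0.49 in clone 37, differed from its neighbours by -0.07 (adjusted p = 0.33), and in clone 15 by -0.11 (adjusted p = 0.28). COX4I1, higher in clone 37 than in parental, was lower than its neighbours (-0.30, adjusted p = 0.0013), since their median was 0.66. NDUFB2, lower in clone 37, was higher than its neighbours (0.38, adjusted p = 0.0016), whose median was -0.95. CYCS in clone 37 turned to 0.35 (adjusted p = 0.00039). ATP5F1A, which did not pass the test in clone 37 as measured, exceeded its neighbours by 0.44 (adjusted p = 4.2e-05). NDUFC1, NDUFAB1, UQCR11, COX5B, ATP5MC1 and ATP5MK in clone 37, and NDUFA2, COX6C, ATP5MF and ATP5MC1 in clone 15, were called in both ways of testing. Among the named members only, other calls in clone 37 against parental that ended against the neighbours were those of NDUFB1, NDUFB4, NDUFB10, NDUFA5, NDUFA13, SDHB, UQCRFS1, COX6B1, NDUFA4, ATP5MC3, ATP5MJ and ATP5ME. Their values ran from -0.11 (COX6B1, adjusted p = 0.22) to 0.36 (NDUFA13, adjusted p = 0.17), with SDHB at 0.15 (adjusted p = 0.057), NDUFA4 at -0.09 (adjusted p = 0.38) and ATP5MJ at -0.0348 (adjusted p = 0.76). In clone 15 against parental, the named members whose calls ended, beside NDUFS1, were NDUFV1, NDUFAB1, NDUFA5, UQCRC2, UQCR11, CYCS, COX7A2L, COX8A, NDUFA4, ATP5MJ and ATP5ME. Their values ran from -0.17 (NDUFAB1, adjusted p = 0.17) to 0.28 (UQCR11, adjusted p = 0.06), with CYCS at 0.0515 (adjusted p = 0.66), NDUFV1 at -0.0986 (adjusted p = 0.34) and UQCRC2 at -0.07 (adjusted p = 0.54).

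Members with and without the promoter letters both held higher and lower genes, and all genes had 26.7% and 27.3% in clone 37 against parental and 25.1% and 26.2% in clone 15 against parental. Of the 20 members with GABPA letters 9 were higher and 3 lower in clone 37 against parental, and of the 49 tested without them 14 and 13. In clone 15 against parental the counts were 11 and 1 with the letters and 20 and 10 without. With YY1 letters 5 were higher and 3 lower of 12 in clone 37, and 4 and 2 in clone 15. Of the 57 without YY1 letters 18 and 13 were called in clone 37, and 27 and 9 in clone 15. The 4 members with NRF1 letters, NDUFA8, NDUFB4, SDHD and ATP5F1C, had 1 higher and 1 lower in clone 37, and 2 and 1 in clone 15. These counts were not tested against each other.

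The factors that serve these promoters and the makers of the complexes were read from lists of related genes. Of 19 complex I assembly factors, which build the complex and do not stay in it, 10 were higher and 6 lower in clone 37 against parental (all genes 26.7% and 27.3%), 10 and 2 in clone 15 against parental (25.1% and 26.2%), and 6 and 9 between the clones (28.7% and 29%). NDUFAF4 was higher in clone 37 (0.73 ± 0.08, adjusted p = 4.0e-07) and in clone 15 (0.39 ± 0.10, adjusted p = 0.0029). NDUFAF1 was higher in clone 15 (0.79 ± 0.12, adjusted p = 3.9e-06) and in clone 37 (0.52 ± 0.11, adjusted p = 0.00073). Of 41 assembly factors of complexes II to V, 19 were higher and 5 lower, 18 and 9, and 13 and 12, beside the same shares of all genes. SCO2, which delivers copper to complex IV, was higher in clone 37 (0.76 ± 0.11, adjusted p = 1.2e-05) and in clone 15 (0.82 ± 0.13, adjusted p = 6.9e-06). SDHAF4, which helps to assemble SDHA, was lower in clone 15 (-1.24 ± 0.16, adjusted p = 5.3e-07) and gave -0.10 in clone 37 (adjusted p = 0.48).

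Of 16 regulators of mitochondrial biogenesis, 8 were higher and 4 lower in clone 37 against parental (all genes 26.7% and 27.3%), 7 and 3 in clone 15 against parental (25.1% and 26.2%), and 6 and 4 between the clones (28.7% and 29%). PPARGC1A, the coactivator PGC-1 alpha, measured 14.9, 14.4 and 14.8 CPM in parental cells, 13.8, 13.7 and 15.4 in clone 15 and 3.38, 5.13 and 5.34 in clone 37. It was lower in clone 37 than in parental (-1.69 ± 0.15, adjusted p = 7.0e-08) and than in clone 15 (-1.62 ± 0.15, adjusted p = 2.7e-10). Among the 8 higher in clone 37 were PPRC1 (mean 197 CPM, 0.84 ± 0.06, adjusted p = 3.5e-09) and PPARGC1B (94.9 CPM, 0.35 ± 0.06, adjusted p = 6.8e-05). POLRMT was higher too (0.63 ± 0.06, adjusted p = 8.1e-08). Genes lower in clone 37 are named more fully here than the 8 higher ones. TWNK, the mitochondrial DNA helicase, was higher in clone 37 (0.84 ± 0.07, adjusted p = 3.5e-08) and in clone 15 (0.67 ± 0.09, adjusted p = 9.6e-07). LRPPRC, which stabilises mitochondrial mRNA, was lower in clone 15 (-0.78 ± 0.09, adjusted p = 5.0e-08) and in clone 37 (-0.23 ± 0.06, adjusted p = 0.0047). The 3 factors of the promoter letters are given whatever their change. YY1 was lower in clone 37 (-0.49 ± 0.06, adjusted p = 3.0e-06) and in clone 15 (-0.21 ± 0.08, adjusted p = 0.038). GABPA was lower in clone 15 (-0.33 ± 0.08, adjusted p = 0.0012) and gave -0.03 in clone 37 (adjusted p = 0.73). NRF1 was lower in clone 37 (-0.24 ± 0.08, adjusted p = 0.024) and gave -0.09 in clone 15 (adjusted p = 0.44).

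Of 13 enzymes of the citric acid cycle, which feeds the chain with NADH and succinate, 3 were higher and 8 lower in clone 37 against parental (all genes 26.7% and 27.3%), 3 and 6 in clone 15 against parental (25.1% and 26.2%), and 5 and 5 between the clones (28.7% and 29%). OGDH (-0.62 ± 0.07, adjusted p = 1.7e-06) was lower in clone 37 and higher in clone 15 (0.31 ± 0.08, adjusted p = 0.0025). Lower in clone 15 were SUCLG2 (-0.997 ± 0.10, adjusted p = 6.2e-09) and FH (-0.78 ± 0.09, adjusted p = 9.7e-08), which were also lower in clone 37 (-0.38 and -0.59). Of the 13 subunit genes of the mitochondrial genome, 4 were higher and 0 lower in clone 37 against parental, 6 and 0 in clone 15 against parental, and 1 and 6 between the clones, beside those same shares of all genes. MT-ATP6, of complex V, was higher in clone 15 (1.07 ± 0.13, adjusted p = 1.4e-06) and gave 0.46 in clone 37 (adjusted p = 0.052). MT-ND2, of complex I, was higher in clone 15 (0.85 ± 0.12, adjusted p = 5.6e-06) and in clone 37 (0.64 ± 0.15, adjusted p = 0.0092). Their parental values include replicate 2, where MT-ATP6 stood at 820 CPM against 1307 and 1251 in the other parental libraries. The tissue isoforms COX4I2, COX6A2, COX6B2, COX7A1, COX7B2 and COX8C passed no filter on low counts, and COX4I2 and COX7A1 had 0 counts in all 9 libraries.

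Replicate spread limits how small a difference can be called. Among members with a mean of at least 5 CPM, the median coefficient of variation was 8.14% in parental cells, 7.22% in clone 15 and 4.60% in clone 37, beside 6.35%, 6.07% and 4.42% for protein-coding genes. The highest values were those of NDUFA13 in parental (34.2%), NDUFB8 in clone 15 (28.0%) and ATP5MF in clone 37 (15.0%). NDUFB8 stood at 19.5, 16.4 and 27.9 CPM in clone 15, and 33.8% of its exon length is shared with another gene on the same strand. The median exon length summed per gene was 1604 bases over the members and 3835 over the 13007 protein-coding genes at 1 CPM or more, and the median GC content was 47.7% and 48.3%.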

How the data were processed

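Per the labels, RNA was ribosome-depleted total RNA, with 3 libraries each of parental, clone 15 and clone 37 cells. The deposited counts per gene were made by the authors with STAR 2.7.10a on hg38 after FastQC 0.11.9, per the submitters' processing notes; annotation release, trimming and filters are not given in the sources used here. The column of the sense strand was used, and the summary entries that name no gene, 40.3% to 49.1% of read pairs, were kept out. The labels do not say that libraries came from separate cultures, so p-values measure a spread that may be technical.

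Each pair of groups was fitted on its own in edgeR 4.0.16 (R 4.3.3) with filterByExpr, TMM scaling and the robust quasi-likelihood test, adjusted by Benjamini-Hochberg over all genes tested and called at 0.05; the scripts were tested on simulated data. Alternatives were DESeq2 1.42.0, other scalings, filters and strands, a replicate block, GC and length trends removed, thinning, and each library left out. Exon lengths and positions come from GENCODE 29 on GRCh38. Members and lists were chosen with earlier results of these data known. Named genes were the core subunits, paralog sets, the members with the largest called changes (4 of complex I, 1 of II, 2 of III, 3 of IV and 3 of V per comparison), those called in opposite directions, and the 2 largest of each other list per comparison, of which some are given and some are not reported here.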

Additional observations from a re-analysis of the deposited data

Results flagged for a closer look

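Some members passed the test in opposite directions in the clones against the parental libraries, which both comparisons share. They were singled out for those opposite calls, so the log2 differences of clone 37 over clone 15 that follow are a description. NDUFAB1 (log2 1.12) and NDUFB10 (0.83), both on chromosome 16, were higher in clone 37 and lower in clone 15 than in parental. NDUFA1 (-0.94), NDUFB1 (-0.97), NDUFB2 (-0.99), NDUFB4 (-0.71), ATP5ME (-0.70) and ATP5MJ (-0.64) had the opposite order. The ATP5ME difference missed the threshold with unstranded counts (-0.85, adjusted p = 0.15) and with GC and length trends removed (-0.49, adjusted p = 0.13). Against the 100 genes around each, the differences were smaller and missed the threshold for ATP5MJ (-0.0632, adjusted p = 0.47), NDUFB2 (-0.15, adjusted p = 0.10) and ATP5ME (-0.23, adjusted p = 0.16).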

How the results depend on the processing

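Of 798, 798 and 796 values of the named members recomputed for clone 37 against parental, clone 15 against parental and clone 37 against clone 15, 722, 709 and 717 kept their direction and side of the threshold, and 26, 18 and 19 changed sign. Of those sign changes, 15, 8 and 14 passed the test under neither setting and are not listed; the other 11, 10 and 5 are given here. Measured against the 100 genes around each gene, an alternative that subtracts change shared with the neighbours by construction, called members fell to 28 and 31 in the comparisons with parental, and calls over all genes fell as well, from 8903 to 7032 and from 9092 to 7393. The medians were then -0.0007 in clone 37 against parental, 0.0746 in clone 15 against parental and -0.13 between the clones. In clone 37 against parental the sign turned for NDUFV1 (-0.23), UQCRFS1 (-0.10), CYCS (0.35), COX4I1 (-0.30), ATP5MC3 (0.14), NDUFA5 (0.0504), COX6B1 (-0.11), NDUFB2 (0.38), UQCRC2 (-0.16), ATP5ME (0.0495) and NDUFB4 (0.0242). In clone 15 against parental it turned for NDUFV1 (-0.10), SDHB (-0.20), CYCS (0.0515), ATP5MC3 (0.33), NDUFA4 (0.0701), COX5B (0.33) and COX8A (-0.0220). Between the clones it turned for CYC1 (-0.0824), COX4I1 (-0.31), ATP5F1A (0.51), ATP5MC2 (0.17) and UQCRC2 (-0.17). With GC and length trends removed, the median was 0.0311 in clone 15 against parental and -0.0368 between the clones, and NDUFA1 (-0.0744) and COX8A (-0.0213) turned in clone 15. The median between the clones was -0.0518 with unstranded counts and -0.0938 with libraries thinned to the smallest, and ranged from -0.157 to -0.0783 with 1 library left out. Among the named members only, those not called in clone 37 against parental that passed the test without parental replicate 2 were ATP5F1A (0.12, adjusted p = 0.012), SDHD (0.17, adjusted p = 0.029), COX6C (0.22, adjusted p = 0.00076), ATP5MF (0.23, adjusted p = 0.012) and UQCRC2 (0.13, adjusted p = 0.011), beside CYC1, NDUFA2 and UQCRQ. COX8A passed there without parental replicate 3 (-0.36, adjusted p = 0.0091), and COX5B passed in clone 15 with GC and length trends removed (-0.43, adjusted p = 0.016). The cause of these shifts was not tested.

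Correlations of same-numbered libraries, centred within groups, ran from -0.162 to 0.0228 over 9 pairs, beside -0.0731 to 0.130 for differently numbered ones. A replicate block lowered edgeR's common coefficient of variation from 0.0630 to 0.0536 between the clones. The block raised it from 0.0622 to 0.0704 in clone 37 and from 0.0858 to 0.0875 in clone 15 against parental. Whether replicate numbers mark shared cultures cannot be told from these values. With a replicate block 45, 47 and 58 members were called (53.6%, 56.0% and 69.0%), beside 50.8%, 49.2% and 59.2% of all genes. With the block and the GC and length trends removed together, the medians were 0.0525 in clone 15 against parental and -0.0347 between the clones, and NDUFA1 gave -0.0554 in clone 15. NDUFA4L2, UQCRHL and NDUFA13 rest on the fewest reads of the named members, which limits what their values can show.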
